A study of Mus musculus with 14 samples.

Results

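The 9 genes described here are a signature of inflammatory monocytes: Fn1, F13a1, Ly6c2, Vcan, Thbs1, Plac8, Lyz2, Ms4a6c and Mpeg1. They were chosen by name, and every table entry whose gene identifier carries one of these symbols was taken. All 9 were found, as 9 of 17890 genes and 38 of 60072 transcripts. Inflammatory (classical, Ly6C-high) monocytes are made in the bone marrow, leave it for the blood and enter injured tissue, where they can become macrophages. Those of mice carry the surface protein Ly6C and hold lysosomal and antimicrobial proteins. They also make proteins of the provisional matrix, the fibronectin-rich and fibrin-rich material that fills a wound before new tissue forms.

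Messenger RNA was sequenced in a study of bone healing around implants in type 1 diabetes, from cells that the labels call bone marrow derived macrophages (BMDM). The diabetic group holds 4 libraries and the healthy group 4. The diabetic mice were male C57BL/6J animals, 8 weeks old at the start, given streptozotocin, which destroys the beta cells of the pancreas. They received 42 to 45 mg/kg a day for 5 days, each time after a 12 h fast, and counted as diabetic above 16.9 mmol/L blood glucose. The healthy mice were control males of the same strain and age. After 6 weeks of hyperglycaemia, marrow progenitors of both groups were grown for 7 days with M-CSF, the macrophage growth factor, in 5 mmol/L glucose. Both groups of cells were thus cultured at the same glucose level. The labels do not tie libraries to single animals, and p-values here cover only the spread among these libraries, which may be technical. The deposited columns are named D and M: D is the initial of diabetic, and M was matched to healthy by elimination, and all directions given below would reverse under the opposite reading. The 3 diabetic-trained and 3 untrained samples of a second phase were not analysed here.

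The 8 libraries held 19048195 to 20027967 estimated counts, and the lowest count of any of the 9 genes in a library was 156, for Fn1. Along the first principal component of all genes, which held 64.7% of the variance, the diabetic libraries spread from -54.5 in replicate 3 to -16 in replicate 1. The healthy libraries spread from 27.9 to 37.6. Replicate 1 was the lowest diabetic library for 5 of the 9 genes. The cell type label was checked against 20 macrophage genes, some of them abundant and some near 0. Csf1r, the M-CSF receptor, averaged 209 ± 22.5 CPM (counts scaled to library size) in diabetic libraries and 162 ± 9.97 CPM in healthy ones (SD, n = 4 each). Adgre1, which encodes F4/80, averaged 87.3 ± 22.4 CPM in diabetic and 46.7 ± 6.91 CPM in healthy libraries. Among the abundant ones, the lysosomal protease gene Ctsd averaged 3457 ± 143 CPM in diabetic and 3269 ± 355 CPM in healthy libraries, and Gpnmb 551 ± 164 CPM in diabetic and 820 ± 294 CPM in healthy libraries. Cd9 and the endosome and lysosome membrane genes Cd63 and Cd68 averaged 318, 287 and 179 CPM in diabetic and 307, 305 and 192 CPM in healthy libraries. The engulfment receptor Mertk averaged 0.739 ± 0.193 CPM in diabetic and 1.06 ± 0.328 CPM in healthy libraries, and the resident macrophage genes Marco, Vsig4 and Timd4 did not exceed 0.153 CPM in any library. The neutrophil gene S100a9 stood at 14378 CPM or more in every library, as the marker lists given further on show. In such bulk samples, fewer cells of a type and less RNA per cell cannot be told apart.

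Of the 9 genes, 4 were higher in diabetic libraries (Fn1, Vcan, F13a1 and Lyz2), 1 was lower (Plac8), and 4 did not pass the test (Ly6c2, Ms4a6c, Mpeg1 and Thbs1). The test was edgeR's quasi-likelihood test over 12839 genes at a Benjamini-Hochberg adjusted p of 0.05. It called 34.7% of all genes, 17.4% higher and 17.3% lower, so the 55.6% called among 9 chosen genes is read only as a description. The median log2 fold change (diabetic over healthy) was 0.41 over the 9 genes and -0.03 over all genes tested. The median absolute log2 fold change was 0.44 over the 9 genes and 0.23 over all genes tested. The diabetic and healthy libraries did not overlap for Fn1, F13a1 and Lyz2, which were higher, nor for Plac8, which was lower. Among all genes, 16.3% did not overlap with the diabetic libraries higher and 18.4% with the diabetic libraries lower.

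**Figure D1:**
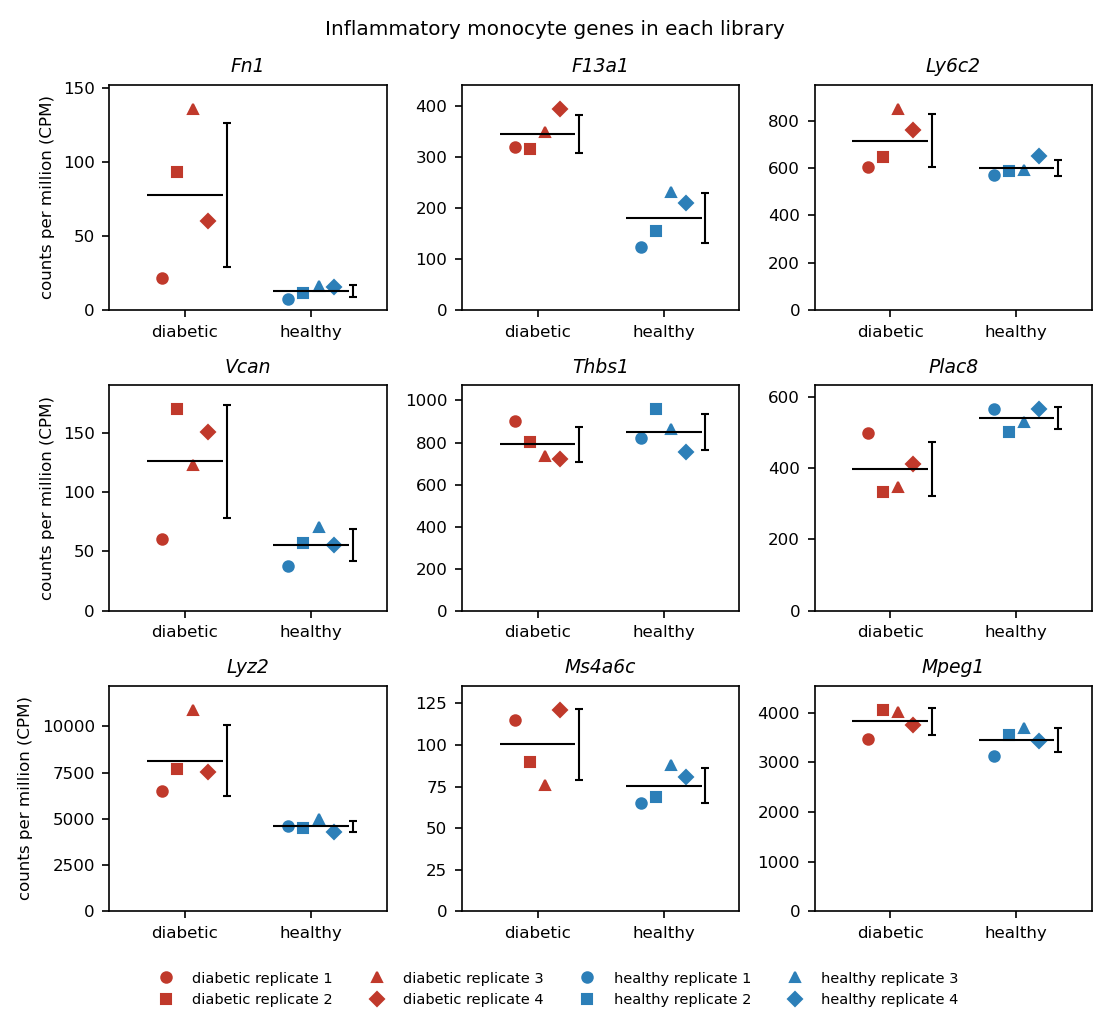
CPM (vertical axes from 0) of the 9 genes in each of 4 diabetic (left, red) and 4 healthy (right, blue) libraries. Symbols mark replicate numbers, horizontal lines are group means and error bars are SD. All 4 diabetic libraries lie above all 4 healthy libraries for Fn1, F13a1 and Lyz2, and below them for Plac8.

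The genes of the provisional matrix were examined first. Fn1 encodes fibronectin, the adhesive glycoprotein that links cells to fibrin and collagen through integrins. Fn1 stood at 21.9, 93.5, 136 and 59.9 CPM in diabetic replicates 1 to 4, against 7.62, 11.7, 15.9 and 15.6 CPM in healthy replicates 1 to 4. Every diabetic library exceeded every healthy one, although diabetic replicate 1 lay close to the healthy range and far below the other diabetic libraries. Fn1 rose by a log2 fold change of 2.61 ± 0.53 (SE), which is 6.11-fold (adjusted p = 0.00702), and ranked 15 of 12839 genes by log2 fold change. It was also the most variable of the 9 in diabetic libraries, with a coefficient of variation of 62.4% against 30.6% in healthy libraries. Without diabetic replicates 1 and 3, the ends of the first principal component (left out together as a choice made on seeing the data), its log2 fold change was 2.62 (adjusted p = 0.00261).

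Fn1 pre-mRNA is spliced at 3 places, the extra domain A exon (EDA), the extra domain B exon (EDB) and a variable exon. Plasma fibronectin from hepatocytes lacks both extra domains, while EDA is a feature of cellular fibronectin made in wounds. On GRCm38 (GENCODE exon structures), Fn1 lies on the minus strand of chromosome 1, from 71585473 to 71653280. The EDA exon covers chr1:71603660-71603929 (270 bases), the EDB exon chr1:71613763-71614035 (273 bases) and the variable exon chr1:71597281-71597747 (467 bases). Shorter forms of the variable exon lack 75 or 360 bases. The junctions below, together with the EDA exon itself, separate a transcript with EDA from one without it. They are shown 5′ to 3′ on the transcript strand from the GENCODE transcripts, 15 bases from each side, with EDA bases in capitals and the flanking exons in lower case.
Junction into EDA, chr1:71603915-71604984: aaactgcagtgaccaACATTGATCGCCCTA
Junction out of EDA, chr1:71602483-71603674: GAATCCAGTCCACAGccattcctgcgccca
Junction that skips EDA, chr1:71602483-71604984: aaactgcagtgaccaccattcctgcgccca

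The table lists 12 Fn1 transcripts, of which 6 passed the filter, and all 6 had a positive log2 fold change (diabetic over healthy). The 6 are parts of a gene that was higher as a whole, and most were listed at 0 in some healthy libraries. The filter can be passed through the 4 diabetic libraries alone, so the shared sign is not separate support. Across all transcripts tested, 4.02% were called and 2.24% were called higher. Of the 27 transcripts of the 9 genes that were tested, 3 were called higher and 0 lower (edgeR), with 8 and 2 at an unadjusted p under 0.05. The 3 were NM_001276410 of Fn1 (log2 fold change 3.12 ± 0.64 SE, adjusted p = 0.0427), NM_028784 of F13a1 (0.95 ± 0.19, adjusted p = 0.0423) and NM_017372 of Lyz2 (0.82 ± 0.15, adjusted p = 0.0294). This count was 0 with the replicate number as a block. It was also 0 without diabetic replicate 2 or 4 or without any 1 of the healthy replicates, 1 without diabetic replicate 3 and 4 without diabetic replicate 1.

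The called Fn1 transcript, which has no EDA and the whole variable exon, was the most abundant in diabetic libraries. It stood at 2.08, 8.61, 16.02 and 6.21 TPM (a level per transcript length, scaled to a fixed total in each library) in diabetic replicates 1 to 4, against 0.50, 1.10, 1.39 and 1.10 TPM in healthy ones. The groups did not overlap. The transcript without EDA and with 75 bases of the variable exon removed, NM_001276411, stood at 1.63 to 8.33 TPM in diabetic libraries and at 0 to 1.65 TPM in healthy ones, where healthy replicate 3 held 1.65 TPM and diabetic replicate 1 held 1.63 TPM. The form without EDA and with 360 bases removed, NM_001276413, reached at most 1.61 TPM in diabetic and 0.66 TPM in healthy libraries. The 3 EDA transcripts summed to 1.17, 4.07, 5.58 and 3.19 TPM in diabetic replicates 1 to 4, against 0.96, 1.49, 0 and 1.71 TPM in healthy replicates 1 to 4. The EDA sums overlapped between the groups, because diabetic replicate 1 lay below 2 healthy libraries. The transcript with both EDA and EDB, NM_010233, was listed at 0 in all but 2 libraries, with 2.75 estimated counts in diabetic replicate 2 and 7.54 in healthy replicate 4.

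As a share of the TPM of the 6 transcripts, EDA forms took 22.7%, 18.9%, 18.9% and 23.4% in diabetic replicates 1 to 4. In healthy replicates 1 to 4 they took 53.9%, 52.7%, 0% and 48.9%. In 3 healthy libraries the share was above all diabetic libraries, and in healthy replicate 3 EDA forms were listed at 0 although 295 estimated counts fell on the other forms. The difference did not pass an exact permutation test (two-sided p = 0.143; 0.0286 is the smallest p that 4 against 4 without pairs allows). With same-numbered libraries paired, the exact two-sided p was 0.25 (0.125 is the smallest that 4 pairs allow). Healthy EDA shares rest on 85.2 to 143 estimated counts in the libraries where they are not 0, and such counts are assigned by the authors' estimator among near-identical transcripts. The whole variable exon was in 56.9% ± 7.97 of the TPM in diabetic and 60.3% ± 18.0 in healthy libraries (SD, n = 4; exact permutation p = 0.714). A test of transcript usage across 28028 transcripts (edgeR's diffSpliceDGE) called 68, or 0.243%. It called 0 of the 25 transcripts tested in the 9 genes, where 0 had an unadjusted p under 0.05 and the lowest adjusted p was 0.999998.

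**Figure D2:**
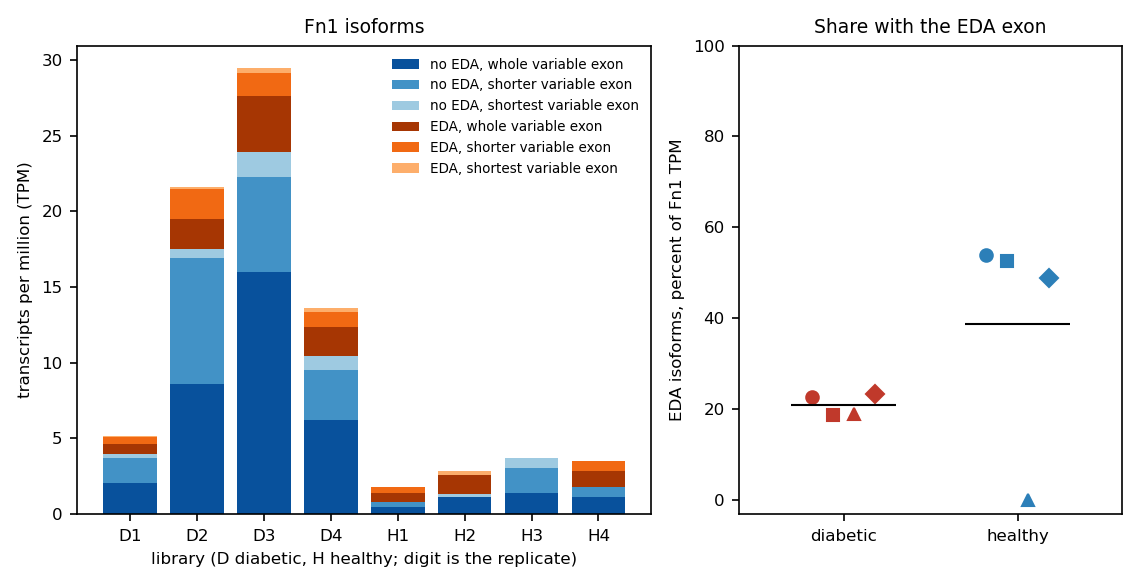
Left, TPM of 6 Fn1 isoforms stacked for each library, diabetic (D1 to D4) then healthy (H1 to H4), with blue for isoforms without the EDA exon and orange for isoforms with it. Right, the share of that TPM in EDA isoforms per library, with lines at the group means: diabetic libraries lie at 18.9% to 23.4%, 3 healthy libraries at 48.9% to 53.9% and healthy replicate 3 at 0%.

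Vcan encodes versican, a large chondroitin sulfate proteoglycan that binds hyaluronan and CD44. Vcan stood at 60.5, 170, 123 and 151 CPM in diabetic replicates 1 to 4, against 37.6, 57.3, 70.4 and 55.4 CPM in healthy replicates 1 to 4. Diabetic replicate 1 lay below healthy replicate 3, so the groups overlapped by 1 library, and the other 3 diabetic libraries lay above the healthy range. Vcan rose by a log2 fold change of 1.19 ± 0.32 (SE; adjusted p = 0.0215). The call was lost without diabetic replicate 2 (log2 fold change 1.01, adjusted p = 0.0533), without diabetic replicate 3 (1.22, 0.0514) and without healthy replicate 4 (1.19, 0.0527). Versican isoforms differ in 2 large exons that carry the glycosaminoglycan chains, GAG alpha at chr13:89702918-89705797 (2880 bases) and GAG beta at chr13:89688285-89693501 (5217 bases), GRCm38. A predicted transcript, XM_011244471, carried most Vcan TPM, at 9.34 to 27.1 TPM in diabetic and 5.42 to 8.56 TPM in healthy libraries. These ranges did not overlap, and its log2 fold change was 1.44 ± 0.32 (SE; adjusted p = 0.0533). Isoforms known to carry GAG beta took 10.5% ± 7.66 of Vcan TPM in diabetic and 23.4% ± 17.0 in healthy libraries (SD, n = 4; exact permutation p = 0.229), with the predicted transcripts left unassigned. The short V3 form, NM_001134475, has neither GAG exon and stood at 3.92 to 10.3 TPM in diabetic against 0 to 4.69 TPM in healthy libraries, with overlap.

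F13a1 encodes the A subunit of coagulation factor XIII, the transglutaminase that cross-links fibrin and couples fibronectin to it. F13a1 stood at 320, 317, 350 and 395 CPM in diabetic replicates 1 to 4, against 123, 156, 231 and 211 CPM in healthy replicates 1 to 4. The lowest diabetic library lay well above the highest healthy one, and here the healthy libraries were the more spread, with a coefficient of variation of 27.5% against 10.5% in diabetic libraries. F13a1 rose by a log2 fold change of 0.94 ± 0.18 (SE), 1.92-fold (adjusted p = 0.00386). Its plasma partner subunit F13b did not exceed 0.0552 CPM in diabetic libraries and was listed at 0 in healthy ones.

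F13a1 has 2 RefSeq transcripts that begin at different sites of the minus strand of chromosome 13. NM_028784 took 100% of F13a1 TPM in 7 libraries and 96.4% in healthy replicate 4, the only library in which NM_001166391 had counts. The 2 start regions (250 bases before to 50 after each start, RefSeq, GRCm38.p6) are shown because almost all F13a1 signal comes from transcripts of the first. Capitals mark GAGGAA, a core of sites bound by the myeloid factor PU.1, searched as G, A, G, G, A, A on both strands. GAGGAA occurs in 28.3% of 32851 such windows of all genes.
F13a1 start of NM_028784, chr13:37049164-37049463: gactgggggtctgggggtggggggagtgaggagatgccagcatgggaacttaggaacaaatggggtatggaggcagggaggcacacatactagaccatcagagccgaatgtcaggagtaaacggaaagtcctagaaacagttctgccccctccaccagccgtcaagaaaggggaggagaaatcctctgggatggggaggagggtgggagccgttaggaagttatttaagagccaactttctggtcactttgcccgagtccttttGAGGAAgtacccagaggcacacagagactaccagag
F13a1 start of NM_001166391, chr13:37050195-37050494: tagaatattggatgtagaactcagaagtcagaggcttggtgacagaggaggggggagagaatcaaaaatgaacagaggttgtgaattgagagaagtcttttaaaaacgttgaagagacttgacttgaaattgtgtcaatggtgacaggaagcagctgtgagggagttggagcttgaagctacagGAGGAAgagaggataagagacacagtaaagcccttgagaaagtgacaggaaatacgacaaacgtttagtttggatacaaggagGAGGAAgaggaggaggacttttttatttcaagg

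The first window holds the motif 1 time and the second 2 times, which is a description of letters and not of binding. A C/EBP-like motif (TTGCNNAA, in 10.8% of windows), searched the same way, occurs in neither window.

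Thbs1 encodes thrombospondin 1, a matrix glycoprotein of platelets and monocytes that binds CD36 and CD47 and activates latent TGF-beta. Thbs1 stood at 904, 801, 736 and 724 CPM in diabetic replicates 1 to 4, against 820, 958, 865 and 757 CPM in healthy replicates 1 to 4. The groups overlapped across most of their range. The log2 fold change was -0.10 ± 0.10 (SE; adjusted p = 0.437), with 2 SE on each side reaching from -0.30 to 0.09. It did not pass the test under any alternative, where values ran from -0.20 to -0.01. The ratio of Fn1 to Thbs1 in TPM averaged 0.0755 ± 0.0496 in diabetic and 0.0111 ± 0.00388 in healthy libraries (SD, n = 4). Fn1 TPM was therefore a small part of Thbs1 TPM in both groups.

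Ly6c2 encodes the Ly6C surface antigen by which these monocytes are sorted. Ly6c2 stood at 603, 646, 852 and 763 CPM in diabetic replicates 1 to 4, against 573, 588, 591 and 651 CPM in healthy replicates 1 to 4. Diabetic replicates 1 and 2 fell within the healthy range and replicates 3 and 4 above it. The log2 fold change was 0.25 ± 0.11 (SE; adjusted p = 0.0914). Without diabetic replicate 1 it was 0.35 (adjusted p = 0.0149), and without diabetic replicates 1 and 3 it was 0.25 (adjusted p = 0.0457). Of the 50-base windows of its main transcript, 33% also occur in another gene, for the most part in its neighbour Ly6c1, so the split of reads between them is uncertain. Ly6c1 averaged 16.8 ± 2.12 CPM in diabetic and 13.8 ± 0.69 CPM in healthy libraries (SD, n = 4; adjusted p = 0.0596).

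Ms4a6c belongs to the membrane-spanning 4A family of leukocyte surface proteins. Ms4a6c stood at 115, 89.6, 75.7 and 121 CPM in diabetic replicates 1 to 4, against 65.2, 68.6, 87.8 and 80.6 CPM in healthy replicates 1 to 4. Diabetic replicate 3, the highest for Fn1, Lyz2 and Ly6c2, was the lowest for Ms4a6c and lay within the healthy range. The log2 fold change was 0.41 ± 0.15 (SE; adjusted p = 0.0593). It passed the test without diabetic replicate 3 (0.54, adjusted p = 0.0109), without healthy replicate 3 (0.49, adjusted p = 0.0466), with DESeq2 size factors (0.43, adjusted p = 0.0467) and without diabetic replicates 1 and 3 (0.50, adjusted p = 0.0396). Its main transcript NM_028595 took 74.5% ± 2.13 of Ms4a6c TPM in diabetic and 65.3% ± 4.43 in healthy libraries (SD, n = 4), higher in 4 of 4 diabetic libraries than in any healthy one. The exact two-sided permutation p was 0.0286, the smallest that 4 against 4 without pairs allows. With same-numbered libraries paired it was 0.125, which is the smallest that 4 pairs allow and does not pass. It is 1 of 17 isoform shares computed, which were chosen after transcript values were seen, and no p is adjusted for their number. The main Plac8 transcript NM_139198 had the same 2 p-values, with 99.68% ± 0.051 of Plac8 TPM in diabetic and 99.49% ± 0.087 in healthy libraries (SD, n = 4; exact permutation tests). Some 11.3% of the 50-base windows of the main Ms4a6c transcript NM_028595 also occur in another gene, against 0% for NM_139198 of Plac8.

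Lyz2 encodes lysozyme M, the bacterial cell wall hydrolase of macrophages, monocytes and neutrophils. Lyz2 stood at 6481, 7692, 10898 and 7509 CPM in diabetic replicates 1 to 4, against 4636, 4529, 4995 and 4262 CPM in healthy replicates 1 to 4. All diabetic libraries lay above all healthy ones, with replicate 3 the highest. Lyz2 rose by a log2 fold change of 0.82 ± 0.15 (SE), 1.77-fold (adjusted p = 0.00213). By mean TPM it ranked 3 of 17890 genes, with 14384 ± 2800 TPM in diabetic and 8715 ± 638 TPM in healthy libraries (SD, n = 4). Of its 50-base windows, 15.4% also occur in Lyz1, a near copy, which averaged 673 ± 139 CPM in diabetic and 399 ± 28.6 CPM in healthy libraries. Lyz1 rose by a log2 fold change of 0.75 (adjusted p = 0.00198), and how far reads were shared between the pair was not tested.

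Mpeg1 encodes perforin-2, a pore-forming protein that kills engulfed bacteria. Mpeg1 stood at 3471, 4058, 4022 and 3760 CPM in diabetic replicates 1 to 4, against 3129, 3542, 3695 and 3436 CPM in healthy replicates 1 to 4. The groups overlapped at diabetic replicate 1. The log2 fold change was 0.15 ± 0.09 (SE; adjusted p = 0.203), with 2 SE on each side reaching from -0.02 to 0.32. The cytolytic relative Prf1, perforin of T and natural killer cells, stood at 1.38 ± 0.558 CPM in diabetic and 0.424 ± 0.187 CPM in healthy libraries (SD, n = 4; log2 fold change 1.69, adjusted p = 0.00814). Prf1 was named after its values were seen.

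Plac8 encodes a small cysteine-rich protein of myeloid cells. Plac8 stood at 499, 334, 347 and 412 CPM in diabetic replicates 1 to 4, against 566, 501, 530 and 566 CPM in healthy replicates 1 to 4. The groups did not overlap, and diabetic replicate 1 lay just under the lowest healthy library. Plac8 fell, with a log2 fold change of -0.44 ± 0.12 (SE; adjusted p = 0.0166). It was the only 1 of the 9 genes called lower. As Lyz2 rose and Plac8 fell, the ratio of Plac8 to Lyz2 in TPM averaged 0.0795 ± 0.0296 in diabetic and 0.181 ± 0.0184 in healthy libraries (SD, n = 4). The ratio of Ly6c2 to Lyz2 in TPM averaged 0.114 ± 0.0132 in diabetic and 0.168 ± 0.0192 in healthy libraries.

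By level per transcript length, Lyz2 stood far above the rest in both groups. Ly6c2 had 1619 ± 196 TPM in diabetic and 1453 ± 101 TPM in healthy libraries (SD, n = 4). Mpeg1 had 1604 ± 101 TPM in diabetic and 1543 ± 137 TPM in healthy libraries. Healthy Plac8 lay near both (1567 ± 83.6 TPM), and above Ly6c2 in every healthy library. Levels of different genes were not tested against each other. Plac8 stood at 1088 ± 231 TPM in diabetic libraries. Thbs1 stood at 245 ± 33.0 TPM in diabetic and 280 ± 29.3 TPM in healthy libraries. F13a1 had 161 ± 15.4 TPM in diabetic and 90.2 ± 26.4 TPM in healthy libraries, and Ms4a6c had 119 ± 28.6 TPM in diabetic and 101 ± 13.9 TPM in healthy libraries. Vcan (29.8 ± 11.1 TPM in diabetic and 13.2 ± 2.68 TPM in healthy libraries) and Fn1 (17.5 ± 10.5 TPM in diabetic and 3.09 ± 1.01 TPM in healthy libraries) were the least abundant, so the largest fold changes fell on the lowest levels.

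**Figure D3:**
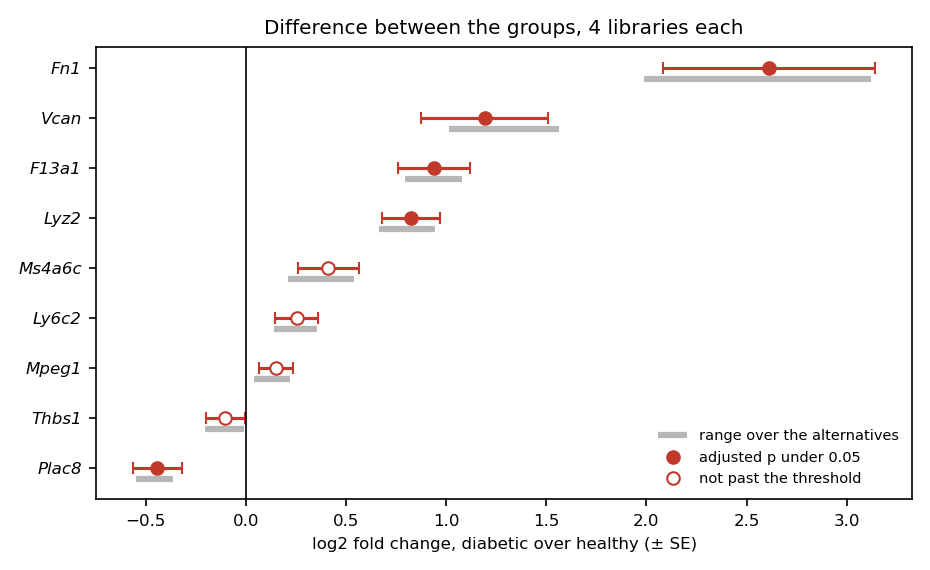
Log2 fold change, diabetic over healthy, of the 9 genes with its SE (red), and the range of the log2 fold change over 18 alternative settings (grey bars). Filled points passed an adjusted p of 0.05. Fn1 lies at 2.61, Vcan, F13a1 and Lyz2 between 0.82 and 1.19, and Plac8 at -0.44, and no grey bar crosses 0.

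Genes that share the context of the 9 were then counted. Of 17 other genes described as high in classical monocytes, 10 rose, 0 fell and 7 did not pass, with a median log2 fold change of 0.65. Ccr2, the chemokine receptor by which monocytes leave the marrow, averaged 215 ± 33.8 CPM in diabetic and 105 ± 16.2 CPM in healthy libraries (SD, n = 4; log2 fold change 1.03, adjusted p = 0.000442). The interferon-inducible membrane genes Ifitm3 (log2 fold change 0.74, adjusted p = 0.000758) and Ifitm6 (0.65, adjusted p = 0.000832) rose as well. Cd14, the lipopolysaccharide co-receptor, did not pass, at 20.3 ± 9.97 CPM in diabetic and 15.6 ± 5.16 CPM in healthy libraries. Of 15 patrolling (Ly6C-low) monocyte genes, 13 were tested, 5 rose and 3 fell, with a median of 0.13. Those that fell included Pou2f2 (log2 fold change -1.16, adjusted p = 5.73e-05) and Nr4a1, the nuclear receptor that patrolling monocytes require (6.14 ± 0.450 CPM in diabetic and 10.9 ± 0.941 CPM in healthy libraries; -0.83, adjusted p = 0.000393). Dusp5, a phosphatase of ERK kinases, fell too (-0.74, adjusted p = 0.00171). The 5 that rose were Cd300ld (log2 fold change 1.31), Ear2 (0.99), Pglyrp1 (0.72), Itgal (0.41) and Klf2 (0.27). These risers were named after their values were seen, and 5 genes of the list did not pass. Which cells the risers and fallers of this list came from was not tested. Marker lists of neutrophils, of basophils, mast cells and eosinophils, and of B cells, given further on, also differed between the groups.

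Of 17 mature macrophage genes tested, 8 rose, 1 fell and 8 did not pass, with a median of 0.33. The summed level of all 20 listed overlapped, at 4845 to 5633 CPM in diabetic and 4338 to 5957 CPM in healthy libraries. Fcgr1, the high-affinity IgG receptor, averaged 21.9 ± 3.17 CPM in diabetic and 8.02 ± 1.62 CPM in healthy libraries (SD, n = 4; log2 fold change 1.45, adjusted p = 0.000125). The transcription factor Maf (1.01, adjusted p = 0.000133) and the complement gene C1qa (1.46, adjusted p = 0.00259) also rose, C1qa at only 2.00 ± 0.329 CPM in diabetic and 0.723 ± 0.244 CPM in healthy libraries. The gene that fell was Apoe, at 41.8 ± 3.58 CPM in diabetic and 55.1 ± 8.54 CPM in healthy libraries, with overlap. Its log2 fold change was -0.40 (adjusted p = 0.0174), and it was named after its values were seen. Of 12 granulocyte and monocyte progenitor genes, 0 rose and 3 fell, with a median of -0.04. These were Myb, a regulator of immature blood cells (log2 fold change -0.85, adjusted p = 0.000501), Sox4 (-1.17, adjusted p = 0.000913) and the cytokine receptor Flt3. The Flt3 value of -0.66 (adjusted p = 0.0447) lost its call without diabetic replicate 2, 3 or 4 or without any 1 healthy replicate, with values from -0.70 to -0.48 and adjusted p up to 0.107. It was also lost with no filter (adjusted p = 0.0825) and with the most abundant transcript (0.13). With the replicate block 5 of the 12 were called. Of 11 transcription factors of monocyte development tested, 2 rose and 1 fell, with a median of -0.03. Nr4a1 fell as above, and Irf8, a factor that monocyte progenitors require, did not pass (132 ± 43.4 CPM in diabetic and 179 ± 9.42 CPM in healthy libraries). Spi1, which encodes PU.1, had a log2 fold change of 0.26 (adjusted p = 0.0253). That call was lost without diabetic replicate 4 (adjusted p = 0.0645), healthy replicate 2 (0.0662) or healthy replicate 4 (0.0736), and with scaling to library totals (0.15, adjusted p = 0.082). It was also lost on the TPM scale (adjusted p = 0.0669 and 0.0661) and with the most abundant transcript (0.17, adjusted p = 0.257).

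Among 15 receptors of fibronectin, thrombospondin 1 and versican, 4 rose and 4 fell, with a median of 0.07. Cd44, the hyaluronan receptor, averaged 1129 ± 155 CPM in diabetic and 742 ± 43.7 CPM in healthy libraries (SD, n = 4; log2 fold change 0.60, adjusted p = 0.00171). The heparan sulfate proteoglycans Sdc4 (15.8 ± 3.93 CPM in diabetic and 57.7 ± 6.29 CPM in healthy libraries; -1.87, adjusted p = 6.87e-05) and Sdc1 (-1.23, adjusted p = 0.00011) fell. Itgb3, the beta 3 integrin chain that binds fibronectin and fibrinogen, fell as well (81.5 ± 11.7 CPM in diabetic and 157 ± 19.7 CPM in healthy libraries; -0.94, adjusted p = 0.00029). The fibronectin receptor chain Itga5 rose (0.28, adjusted p = 0.0358), while its partner Itgb1 stood at 273 ± 16.2 CPM in diabetic and 271 ± 20.2 CPM in healthy libraries. The thrombospondin receptor Cd36 fell (-1.35, adjusted p = 0.00853). Cd44, Itga5, Itgb1 and Cd36 were named after their values were seen. The cell source of these receptors was not tested. All megakaryocyte and platelet markers and most B and plasma cell markers, given further on, fell.

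Of 15 tested genes of coagulation and fibrinolysis, 5 rose and 3 fell, with a median of 0.17. The plasminogen activator Plau averaged 23.0 ± 3.12 CPM in diabetic and 11.5 ± 1.63 CPM in healthy libraries (SD, n = 4; log2 fold change 1.00, adjusted p = 0.000344). The tissue factor gene F3 rose too (1.31, adjusted p = 0.00273), at a low level of 1.65 ± 0.291 CPM in diabetic and 0.660 ± 0.135 CPM in healthy libraries. Without healthy replicate 4, on the TPM scale or with the most abundant transcript the list had 5 calls in place of 8. Of 14 tested proteases, inhibitors and matrix regulators, 5 rose and 2 fell, with a median of 0.00. The gelatinase Mmp9 (log2 fold change 0.85, adjusted p = 0.00207) and the inhibitor Timp2 (0.89, adjusted p = 0.00212) rose, and the inhibitor Timp3 fell (-1.33, adjusted p = 0.000151). Mmp9 is also a neutrophil granule gene and a member of that marker list.

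Of 15 tested relatives of the 9 genes, 7 rose and 0 fell, with a median of 0.72. Ms4a4b (log2 fold change 1.18, adjusted p = 0.000104), a gene of T cells as well, and Ms4a6b (1.01, adjusted p = 0.000738) rose beside Lyz1. Ly6g, the neutrophil surface relative of Ly6c2, stood at 39.7 to 111 CPM in diabetic and 20.7 to 34.6 CPM in healthy libraries. The thrombospondin relatives Thbs2 and Thbs3 stayed at or under 1.15 CPM in every library.

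Markers of other marrow cells moved with the group, and their part in the results above was not tested. Of 15 neutrophil markers, 12 rose and 0 fell, with a median log2 fold change of 0.73. Their summed level was 46153 to 71606 CPM in diabetic and 39681 to 41615 CPM in healthy libraries, highest in diabetic replicate 3 and lowest among diabetic libraries in replicate 1. The granule gene Camp averaged 863 ± 65.6 CPM in diabetic and 519 ± 86.4 CPM in healthy libraries (SD, n = 4; 0.73, adjusted p = 0.000972), and Cd177 rose by 0.80 (adjusted p = 0.00131). Neutrophils also express Lyz2, whose log2 fold change of 0.82 stands beside that median. The summed neutrophil level and Lyz2 share the same highest and lowest diabetic libraries.

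Of 8 basophil, mast cell and eosinophil markers, 7 rose and 0 fell, with a median of 0.75 and sums of 665 to 838 CPM in diabetic and 413 to 444 CPM in healthy libraries. Fcer1a (log2 fold change 2.19, adjusted p = 8.64e-06) and Mcpt8 (1.58, adjusted p = 0.000161) led them. Of 10 megakaryocyte and platelet markers, all 10 fell, with a median of -1.40 and sums of 175 to 274 CPM in diabetic and 416 to 550 CPM in healthy libraries. Gp9 (-1.60, adjusted p = 9.52e-05) and Gp1ba (-0.97, adjusted p = 9.94e-05) were among them. Platelets and their precursors also hold F13a1 and Thbs1, and F13a1 was higher in the diabetic libraries, where these markers were lower. The cell source of F13a1 and Thbs1 was not tested.

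Of 11 fibroblast and stromal markers, 6 were tested, 0 rose and 4 fell, with sums of 43.2 to 47.7 CPM in diabetic and 52.1 to 64.2 CPM in healthy libraries. Sparc (log2 fold change -3.43, adjusted p = 0.00336) and Col1a1 (-0.52, adjusted p = 0.0167) fell. Col1a1 lost its call without healthy replicate 2 (adjusted p = 0.0504), where the list had 2 calls, and with the most abundant transcript (adjusted p = 0.0534). The list also had 2 calls on the TPM scale and 1 with a minimum of 50 counts, and 1 without diabetic replicates 1 and 3, where Sparc lost its call (-3.03, adjusted p = 0.0585). The defining genes Col3a1, Dcn, Lum and Pdgfra did not exceed 0.30 CPM in any library. Fn1, which fibroblasts make in quantity, and Vcan were higher in the diabetic libraries, where the stromal markers were lower. The cell source of Fn1 and Vcan was not tested. Of 12 B and plasma cell markers, 9 fell and 1 rose, with a median of -2.83 and sums of 218 to 372 CPM in diabetic and 1141 to 1474 CPM in healthy libraries. Ms4a1 (CD20) fell by 2.78 on the log2 scale (adjusted p = 0.000145), Cd22 fell by 2.18 (adjusted p = 0.00016), and the riser was Jchain, the joining chain of secreted antibodies (87.9 ± 55.7 CPM in diabetic and 3.07 ± 0.626 CPM in healthy libraries), named after its values were seen.

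Of 10 dendritic cell markers tested, 7 fell and 0 rose, with a median of -0.98 and sums of 95.8 to 219 CPM in diabetic and 382 to 419 CPM in healthy libraries. Irf4 (log2 fold change -2.75, adjusted p = 4.21e-05) and Siglech (-1.17, adjusted p = 0.00703) fell. The list had 4 calls without diabetic replicate 2 or without healthy replicate 1, 2 or 4. With the most abundant transcript per gene it had 1 call, and neither Irf4 (-2.01, adjusted p = 0.164) nor Siglech (-1.13, adjusted p = 0.0618) passed. Of 8 T and natural killer cell markers tested, 4 rose and 1 fell, with a median of 0.52 and sums of 66.0 to 75.2 CPM in diabetic and 52.7 to 61.0 CPM in healthy libraries. Cd3e (1.28, adjusted p = 0.000369) and Cd3g (1.17, adjusted p = 0.000605) rose. Of 8 erythroid markers 0 passed (edgeR; 1 at an unadjusted p under 0.05, and 1 by DESeq2), with a median of -0.55 and sums of 917 to 4233 CPM in diabetic and 2979 to 5720 CPM in healthy libraries. Without diabetic replicate 1 there were 2 erythroid calls, and without healthy replicate 1 there was 1.

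**Figure D4:**
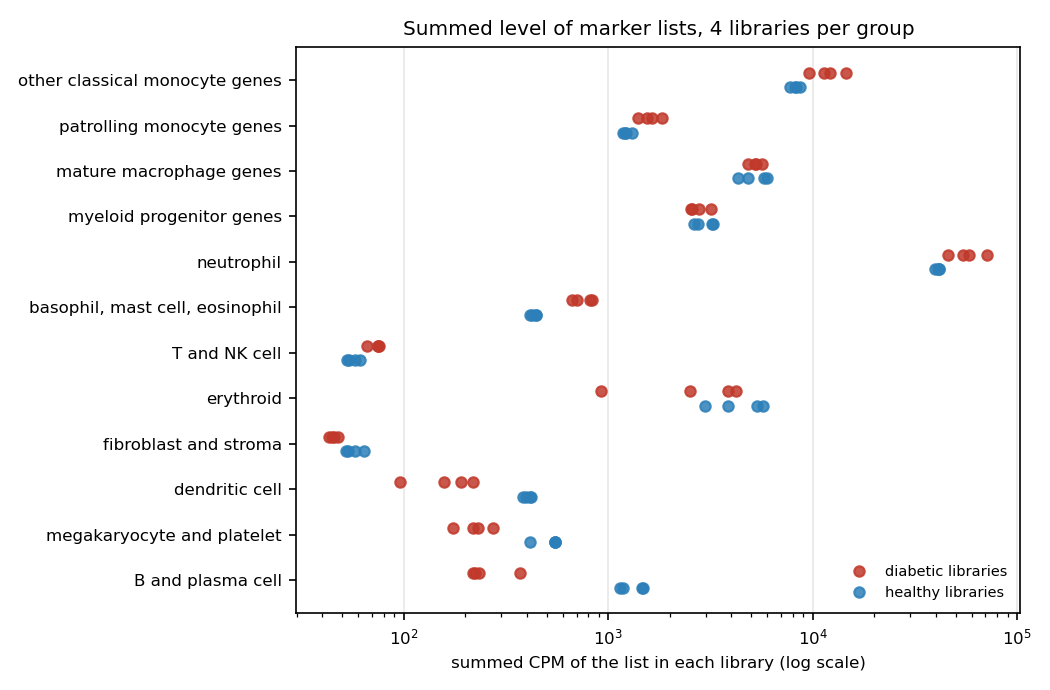
Summed CPM (log scale) of 12 lists of marker genes in each of 4 diabetic (red, upper row) and 4 healthy (blue, lower row) libraries. Neutrophil sums are 46153 to 71606 CPM in diabetic and 39681 to 41615 CPM in healthy libraries, and B and plasma cell sums are 218 to 372 CPM in diabetic and 1141 to 1474 CPM in healthy libraries.

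Genes whose profile over the 8 libraries lay nearest to a member were found by the root mean square distance of centred log2 CPM. For Fn1 they were Mpzl3, Upp1 and Ccr3, at distances of 0.40, 0.40 and 0.43, and Vcan came at rank 61. Ccr3, the eotaxin receptor of eosinophils and basophils, stood at 5.74, 25.2, 17.2 and 17.4 CPM in diabetic replicates 1 to 4, against 1.51, 4.25, 3.46 and 4.37 CPM in healthy ones. Like Fn1, it was lowest in replicate 1 of each group. For F13a1 the nearest were Ccdc126, Nt5e and Gm52520, each at 0.14 to 0.15. For Lyz2 they were Lyz1, Sqor and Alox5, each at 0.06 to 0.07. For Plac8 they were Ift122, Tmem229b and Ttc4, each at 0.05 to 0.06. Distances are smaller for genes that vary less, so they rank genes within a member and not between members.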

How the data were processed

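RNA of 8 first-phase libraries, 4 diabetic and 4 healthy, was analysed. Per the labels' design text, the authors captured polyadenylated RNA with oligo(dT), filtered reads with SOAPnuke 1.5.6, aligned them (HISTA2 2.1.0, as spelled there) to mm10 and tested genes with limma 3.66.0; not given in the sources used here are the quantifier, the annotation release and the use of strand. Per the file headers, each RefSeq transcript has an estimated count that the authors did not normalize. The authors also deposited TPM values, scaled by transcript length to a fixed total per library, per the file headers. Here these were added up by gene and then rounded. Totals were 19048195 to 20027967 per library. Genes were kept with edgeR's filterByExpr (minimum count 10, minimum total 15), which left 12839.

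Genes were tested with the quasi-likelihood test of edgeR 4.0.16, with TMM factors (0.913 to 1.05), a robust fit and Benjamini-Hochberg adjustment at 0.05, in R 4.3.3, with group as the only term. CPM uses TMM-scaled library sizes. Transcripts were tested alike, and their usage with diffSpliceDGE. Shares were compared by exact two-sided permutation tests, without and (added after the data were seen) with pairs. The scripts were checked on simulated counts. No pair of replicates was within sampling noise of each other (chi-square per gene, 6.52 to 67.7). Same-numbered diabetic and healthy libraries deviated together (correlations 0.115, 0.131, 0.118 and 0.182, against -0.178 to 0.0735 for other pairs). The deviations are from group means, so these correlations depend on one another. The replicate numbers, which come from the sample titles, may pair the libraries, but the main fit does not use them. The labels do not explain the numbers, and the fit with the number as a block is an alternative.

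The 9 genes and the 17 lists were chosen with earlier results of these data known. Genes were named by rule: the 9; up to 3 called genes of lowest p per list and up to 2 per marker list; and the 3 nearest profiles (mean log2 CPM at least 1) for 4 of the 9. Some genes the rule names are not reported here. Others, given as context, were named after their values were seen. Alternatives were DESeq2 1.42.0 size factors and its test, library totals only, no filter (at least 1 count), a minimum of 50 counts, limma 3.58.1 on log2(TPM + 1) and log2(TPM + 0.1) with a minimum mean of 1 TPM, the most abundant transcript per gene, the block, and each library left out. Promoters came from RefSeq (GRCm38.p6), exon structures from GENCODE, and the files' build is mm10, the same assembly; start windows of Fn1 and Thbs1 were not used here.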

Additional observations from a re-analysis of the deposited data

Results flagged for a closer look

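One value stood apart from its group. The share of EDA isoforms in Fn1 TPM was 0% in healthy replicate 3, against 48.9% to 53.9% in the other healthy libraries. The gap was 0.906 of the group's range which is above Dixon's critical value for 4 samples. Of 24 groups of 4 libraries examined, 1 was set apart in this way, and chance gives about 1 in 20. That library held 295 estimated counts on Fn1 isoforms without EDA.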

How the results depend on the processing

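Over 18 alternatives, 1 of them added after the data were seen, no gene named by the rule changed direction where it was tested. Other genes given as context were not followed through the alternatives. Fn1, F13a1, Lyz2 and Plac8 passed in all 18, with log2 fold changes of 1.99 to 3.12, 0.79 to 1.08, 0.67 to 0.94 and -0.55 to -0.37. Vcan passed in 14 (1.01 to 1.56) and also lost its call with no filter (adjusted p = 0.0517). Ly6c2 passed in 3 and Ms4a6c in 5, including DESeq2's test (adjusted p = 0.0481 and 0.0197). Thbs1 and Mpeg1 passed in 0. The count of all genes called was 4456 and became 2052 with the most abundant transcript per gene. The count of called transcripts of the 9 genes was 3 and became 1 with no filter and 0 with the replicate block, and 0 to 4 with single libraries left out. The causes were not tested. The block changed no call of the 9 genes, and pairing moved the 2 isoform shares at p = 0.0286 (exact permutation test) to 0.125. The progenitor list had 5 calls with the block in place of 3, and other lists that moved did so by 1 to 6 calls (coagulation, stroma, dendritic, erythroid). The median log2 fold change of all genes was -0.14 with library totals and -0.11 and -0.12 on the TPM scale, against -0.03 in the main fit, and the directions of the 9 genes held there. Depth limits the Fn1 isoform shares, which rest on 156 to 295 counts in the healthy libraries.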
